A study of Rattus norvegicus with 24 samples.

Results

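The 3 genes described here encode the corticosteroid receptors of the rat hippocampus and an enzyme that supplies their ligand: Nr3c1 (ENSRNOG00000014096), Nr3c2 (ENSRNOG00000034007) and Hsd11b1 (ENSRNOG00000005861). They are 3 of the 32883 genes in a table of raw RNA-seq read counts, and all 3 passed the filter on low counts that left 14838 genes for testing. They were taken by identifier. The table holds no symbols and the RefSeq gene table used with it (47357 genes, assembly GRCr8) holds 0 Ensembl identifiers, so the pairing of identifier and symbol was given with the choice of genes and was not checked.

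Nr3c1 encodes the glucocorticoid receptor and Nr3c2 the mineralocorticoid receptor, related nuclear receptors that both bind corticosterone, the main glucocorticoid of the rat, and act as transcription factors. The mineralocorticoid receptor has the higher affinity and is largely occupied at resting hormone levels, while the glucocorticoid receptor is filled as the hormone rises with stress or the daily peak. The hippocampus is known for expressing both. Hsd11b1 encodes 11-beta-hydroxysteroid dehydrogenase type 1, which in brain regenerates active corticosterone from its inert 11-keto form inside cells.

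Hippocampi of male Sprague-Dawley rats were profiled in 24 libraries, 1 per sample. The 4 groups were 7 samples without training given vehicle, 6 without training given corticosterone, 5 with training given vehicle and 6 with training given corticosterone, called untrained and trained libraries with either treatment below. The labels name no training task, dose, sampling time or age, and do not say that each sample is a separate rat, so tests measure the spread between samples. A replicate is named by the sample number in its title. Total counts in genes were 13760331 to 16765088 per library. Levels are in CPM, counts scaled to a common library size with TMM factors (a correction for differences in library composition), and hold no correction for gene length, so levels of different genes are not compared.

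Libraries differed in ways the groups do not explain. On the first principal component of log2 CPM, which carried 31.5% of the variance, 8 libraries stood apart from the other 16. The 8 held 1 vehicle and 3 corticosterone libraries of untrained rats and as many of each from trained rats. The gene with the largest loading lay between 1748 and 4674 CPM in them and between 5.70 and 458 CPM in the others. The larger shifts seen when these 8 were left out are given beside the results they touch, and the spread within groups was computed over all 24. In the table, the column of untrained vehicle replicate 41 is placed beside those of trained vehicle, and results were also computed without it. Tissue and cell type markers were not looked up, since no table paired identifiers with symbols. In bulk tissue, fewer cells of a type and less RNA per cell cannot be told apart.

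Nr3c1, the glucocorticoid receptor gene, was already known to be among the genes called lower after corticosterone, averaged over both training states, when the 3 genes were picked by function. The corticosterone values of all 3 are therefore given as a description and carry no test. In untrained vehicle libraries Nr3c1 lay between 87.1 and 100.5 CPM, with a median of 95.6 CPM. In untrained corticosterone libraries the lowest value was 74.0, the median 82.2 and the highest 87.5 CPM. Only the highest corticosterone library of the untrained rats, replicate 39, reached into the range of the vehicle libraries, above the lowest of them, replicate 27.

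The trained vehicle libraries held 83.9, 86.6, 90.2, 95.3 and 102 CPM of Nr3c1. The trained corticosterone libraries lay between 74.5 and 82.1 CPM, with a median of 79.7 CPM. All 6 lay below all 5 trained vehicle libraries, which holds for 0.505% of the genes tested. The mean with corticosterone differed from that with vehicle by -14.0% in untrained and -14.0% in trained rats. On the log2 scale the difference was -0.22 (SE 0.05) in both states, and -0.22 (SE 0.04) averaged over them. At the level of the whole table, 37 genes were called lower in the averaged comparison (edgeR adjusted p under 0.05), which is 0.249% of those tested. Nr3c1 was among these, as known when it was picked. The number called lower was 8 with log2 total counts as covariate and 4 without the 8 libraries apart on the first component. The raw counts behind the Nr3c1 values were 1144 to 1623 reads per library.

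**Figure D1:**
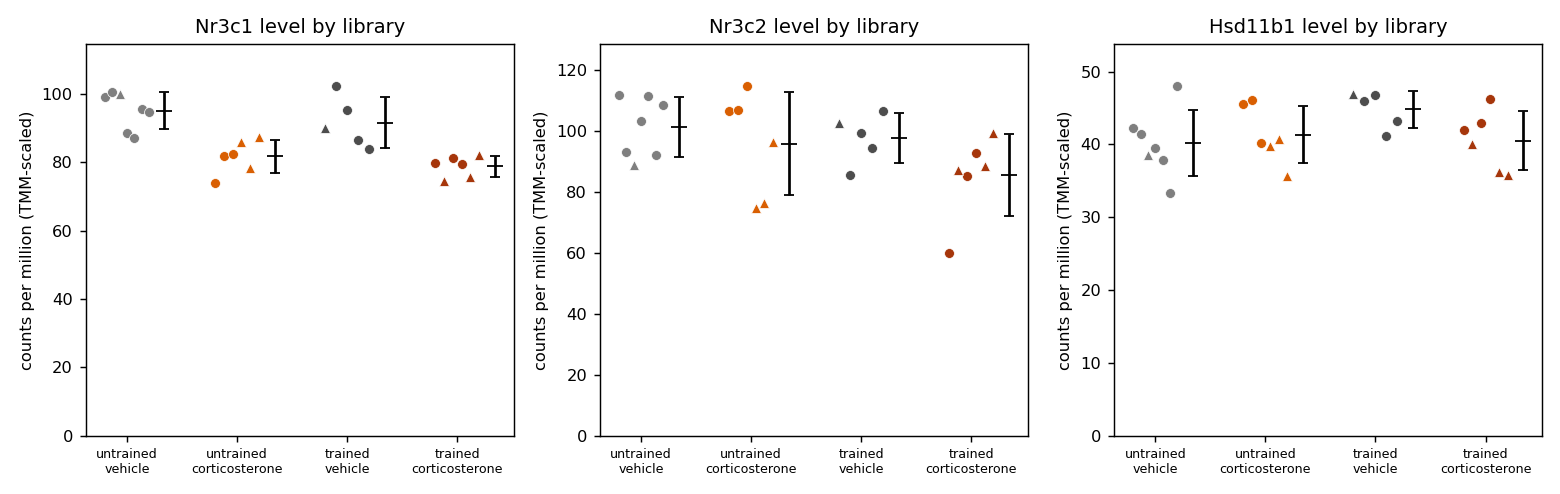
CPM (vertical axis, from 0) of Nr3c1, Nr3c2 and Hsd11b1 in each of the 24 libraries by group. Each point is 1 library, triangles are the 8 libraries apart on the first component, and the bar beside each group is its mean with the SD. Nr3c1 is lower in both corticosterone groups, Nr3c2 is the most scattered, and the Hsd11b1 groups overlap.

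The order of the Nr3c1 group means, from the highest, was untrained vehicle, then trained vehicle, untrained corticosterone and last trained corticosterone, at 95.1 ± 5.44 (SD, n = 7), 91.6 ± 7.36 (SD, n = 5), 81.7 ± 4.93 (SD, n = 6) and 78.8 ± 3.10 CPM (SD, n = 6). The first and second of these differed by less than either SD, and so did the third and the fourth. The step from vehicle to corticosterone exceeded the SD of every group.

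The 8 libraries apart on the first component include 6 corticosterone and 2 vehicle libraries, so each side of that split was read alone. On the side of the 8, Nr3c1 lay between 74.5 and 87.5 CPM with corticosterone and at 90.2 and 100.0 CPM with vehicle. Among the other 16 libraries it lay between 74.0 and 82.3 CPM in 6 corticosterone libraries and between 83.9 and 102 CPM in 10 vehicle libraries. Corticosterone libraries thus lay below every vehicle library on each side, with log2 differences of -0.24 and -0.22. Of all genes tested, 4.07% were separated this way among the 8, 0.0674% among the 16 and 0.027%, or 4 genes, on both sides. The separation among the 8 rests on 2 vehicle libraries. Nr3c1 was picked with its call over these same libraries known, so the split is a description and not separate support.

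Nr3c1 was also set against sequencing depth. Within groups its log2 CPM was lower where the library's total count was higher (Pearson r = -0.51, p = 0.0377, Spearman rho = -0.40, p = 0.0905, permutation tests within groups, n = 24). This was 1 of 6 relations tested and did not pass after adjustment over them (adjusted p = 0.226 for r and 0.272 for rho). Without the 2 libraries farthest from the median of Nr3c1, r was -0.45, and without the 8 that stand apart it was -0.73. The value was -0.65 within the 12 vehicle libraries and -0.15 within the 12 corticosterone libraries. The median total was 14119671 in trained vehicle and 15959964 in trained corticosterone libraries, against 15652584 and 15658834 in untrained ones. With the log2 total as a covariate, a fit added after the data were seen, the Nr3c1 difference was -0.21 (SE 0.04) in untrained and -0.14 (SE 0.06) in trained rats, and -0.17 (SE 0.04) averaged. For Nr3c2 and Hsd11b1 the relation with the total had r = 0.18 (p = 0.29, adjusted p = 0.581, rho = 0.13, p = 0.506) and r = -0.06 (p = 0.771, adjusted p = 0.925, rho = -0.14, p = 0.525), by permutation tests within groups, with an adjusted p of 0.630 for each rho. Without the 2 libraries farthest from the median of the gene, these r were 0.05 and -0.31. The part of depth in the trained Nr3c1 difference was not tested beyond this.

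Nr3c2, the mineralocorticoid receptor gene, was more variable. Untrained vehicle libraries lay between 88.6 and 112 CPM with a median of 103 CPM. Untrained corticosterone libraries lay between 74.5 and 115 CPM with a median of 101 CPM. They fell into a low pair, replicates 19 and 29 at 74.5 and 76.2 CPM, and 4 libraries from 96.1 CPM upwards. The vehicle range lay within the corticosterone range.

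In trained vehicle libraries Nr3c2 was at 85.3, 94.1, 99.0, 102 and 106 CPM. In trained corticosterone libraries the lowest value was 59.9, the median 87.6 and the highest 99.1 CPM. The lowest, replicate 3, had 939 Nr3c2 reads where the other 5 libraries of its group had 1362 to 1629. It and replicate 18, at 85.2 CPM, were below the whole trained vehicle range, and 2 of 5 vehicle libraries were above the whole corticosterone range.

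The corticosterone difference of Nr3c2 on the log2 scale was -0.08 (SE 0.10) in untrained and -0.19 (SE 0.11) in trained rats, and -0.13 (SE 0.08) averaged. All of these were smaller than the within-group SD of 0.21 log2 units. Without the 8 libraries apart on the first component, the difference was 0.08 (SE 0.11) in untrained and -0.28 (SE 0.12) in trained rats. In untrained rats it was -0.02 without corticosterone replicate 19 and -0.02 without replicate 29. In trained rats it was -0.11 without corticosterone replicate 3. The direction in untrained rats thus turned with the choice of libraries, whereas that of Nr3c1 did not under any of the alternatives run.

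Hsd11b1, the corticosterone-regenerating enzyme, was at 33.4 to 48.0 CPM (median 39.5 CPM) in untrained vehicle and at 35.7 to 46.1 CPM (median 40.5 CPM) in untrained corticosterone libraries. These groups overlapped almost completely. Trained vehicle libraries held 41.2, 43.2, 46.0, 46.8 and 46.9 CPM, and trained corticosterone libraries lay between 35.8 and 46.2 CPM with a median of 40.97 CPM. In trained rats 3 of 6 corticosterone libraries were under the whole vehicle range. Counts were 487 to 757 reads per library.

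The log2 corticosterone difference of Hsd11b1 was 0.04 (SE 0.07) in untrained and -0.15 (SE 0.08) in trained rats, and -0.05 (SE 0.05) averaged. The 3 low trained corticosterone libraries, replicates 8, 33 and 40, are those of that group among the 8 apart on the first component. Over all groups Hsd11b1 was at 39.2 ± 3.71 CPM in the 8 (SD) and at 42.7 ± 3.82 CPM in the other 16 (SD). Without the 8, its difference was 0.12 (SE 0.09) in untrained, -0.02 (SE 0.09) in trained and 0.05 (SE 0.06) averaged, so the averaged direction turned. What sets the 8 libraries apart was not tested.

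**Figure D2:**
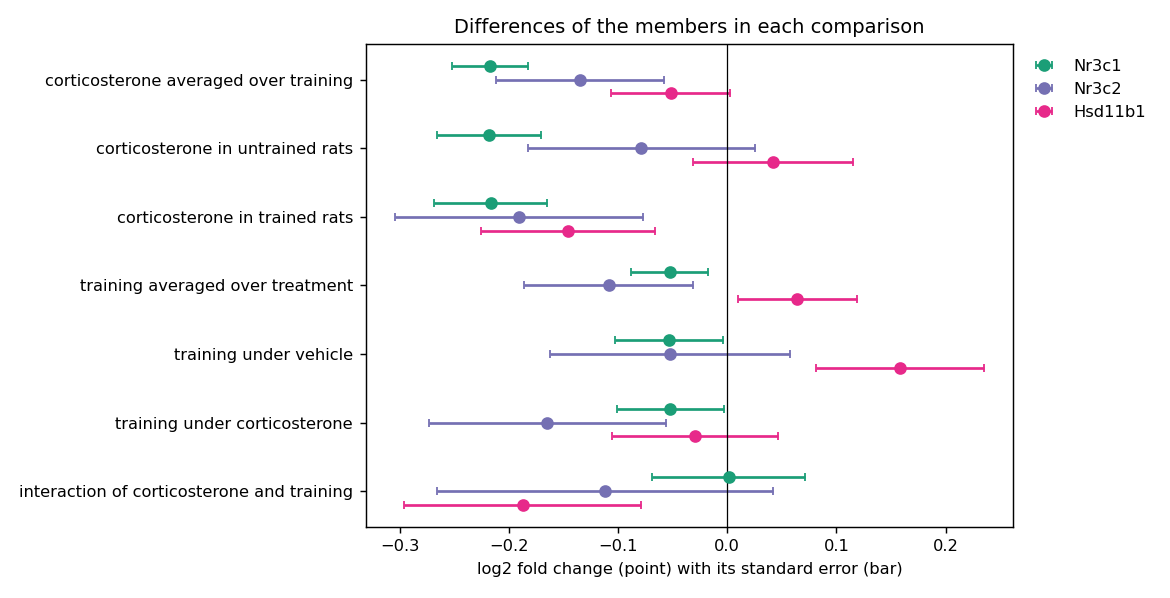
Log2 fold change (horizontal axis) of the 3 genes in 7 comparisons, with bars of 1 standard error from the edgeR fit. The Nr3c1 point for corticosterone is at -0.22 in both training states, while Nr3c2 and Hsd11b1 have wider bars and less even values.

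Whether training changed the expression of the receptors or the enzyme was tested, since the choice of the genes is taken to rest on the corticosterone comparison. Averaged over treatment, the log2 fold change of trained against untrained rats was -0.05 (95% interval -0.13 to 0.02) for Nr3c1, -0.11 (-0.27 to 0.05) for Nr3c2 and 0.06 (-0.05 to 0.18) for Hsd11b1. None of the 3 passed (edgeR adjusted p = 0.999 for each). Without the 8 libraries the values were -0.01 (SE 0.05), -0.28 (SE 0.08) and 0.06 (SE 0.06), of which that of Nr3c2 was larger and had an edgeR adjusted p of 0.435. That was the smallest adjusted p of the fit, a value that the Benjamini-Hochberg adjustment can give to many genes at once. It therefore does not place Nr3c2 first among the genes. In that edgeR fit 0 of 14860 genes were called and 1254 had an unadjusted p under 0.05. With all 24 libraries 0 of 14838 genes were called, or 0%, by edgeR and 0 by DESeq2, while 485 and 487 had an unadjusted p under 0.05. None (0) of the 3 genes was at an unadjusted p under 0.05 in this or the 3 comparisons that follow, by edgeR or DESeq2 with all 24 libraries.

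Under vehicle, Hsd11b1 was higher in trained than in untrained means by 11.6%, at 44.8 ± 2.53 (SD, n = 5) against 40.2 ± 4.52 CPM (SD, n = 7). The log2 fold change was 0.16 (95% interval -0.0013 to 0.32), with an unadjusted p of 0.0517 and an edgeR adjusted p of 0.9999. The highest library of both groups, replicate 41 at 48.0 CPM, belongs to the untrained group by its label, and without it the fold change was 0.20 (SE 0.07, edgeR adjusted p = 0.9999). Nr3c1 and Nr3c2 each had a log2 fold change of -0.05 (SE 0.05 and 0.11). Here 0% of genes were called, with 338 at an unadjusted p under 0.05 by edgeR and 335 by DESeq2, which also called 0.

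Under corticosterone, the training fold change was -0.05 (SE 0.05) for Nr3c1, -0.16 (SE 0.11) for Nr3c2 and -0.03 (SE 0.08) for Hsd11b1 on the log2 scale, with edgeR adjusted p-values of 0.883, 0.845 and 0.959. Again 0% of genes were called (903 at an unadjusted p under 0.05 by edgeR, 925 by DESeq2, which called 0). For Nr3c2 the means were 95.7 ± 16.9 CPM without and 85.4 ± 13.4 CPM with training (SD, n = 6 each). Without the 8 libraries the Nr3c2 value was -0.46 (SE 0.12, edgeR adjusted p = 0.218), which rests on 3 libraries in each group and includes trained replicate 3 at 59.9 CPM.

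The interaction asked whether the corticosterone difference itself changed with training. The trained less the untrained corticosterone difference of Nr3c1 was 0.0012 log2 units (95% interval -0.14 to 0.15, edgeR adjusted p = 0.998). It was -0.11 (-0.43 to 0.21, edgeR adjusted p = 0.975) for Nr3c2 and -0.19 (-0.41 to 0.04, edgeR adjusted p = 0.962) for Hsd11b1. None passed, and 0% of genes were called by edgeR, with 634 at an unadjusted p under 0.05, and 0 by DESeq2, with 665. The interval was narrowest for Nr3c1 and widest for Nr3c2. Without the 8 libraries the interaction was 0.05 (SE 0.09) for Nr3c1, -0.36 (SE 0.16, edgeR adjusted p = 0.725) for Nr3c2 and -0.14 (SE 0.13) for Hsd11b1, so the size for Nr3c2 depended on these libraries. Over all alternatives run, including log2 total counts as covariate, the Nr3c1 interaction lay between -0.03 and 0.07.

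The balance of the receptor transcripts was read within each library as Nr3c1 reads per Nr3c2 read, a measure that needs no scaling between libraries. It holds no correction for gene length and measures RNA, not protein, so only its differences between libraries are read. In untrained rats it was 0.950 ± 0.131 with vehicle (SD, n = 7) and 0.880 ± 0.185 with corticosterone (SD, n = 6). In trained rats it was 0.950 ± 0.154 with vehicle (SD, n = 5) and 0.947 ± 0.193 with corticosterone (SD, n = 6). Over all libraries it ran from 0.696 to 1.33. On the log2 scale the difference between corticosterone and vehicle was -0.13 in untrained and -0.01 in trained rats, within the SDs of 0.20 to 0.30 of the groups compared. The trained corticosterone mean includes replicate 3 at a log2 ratio of 0.41, where its group otherwise lay between -0.27 and -0.07. The median log2 ratios were -0.22 with corticosterone and -0.12 with vehicle in trained rats, and -0.26 and -0.17 in untrained rats.

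For training the log2 difference of the ratio was -0.0033 under vehicle (exact two-sided permutation test, p = 0.972) and 0.11 under corticosterone (exact two-sided permutation test, p = 0.504), with an adjusted p of 0.972 for both over the 2 tests. The untrained corticosterone libraries split by the first component, with 0.910, 1.03 and 1.15 in the 3 that stand apart and 0.696, 0.719 and 0.768 in the other 3. The trained corticosterone libraries that stand apart were at 0.828, 0.855 and 0.857. The rest of their group was at 0.859, 0.954 and 1.33, so the 2 sets nearly met and no such split was seen there.

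**Figure D3:**
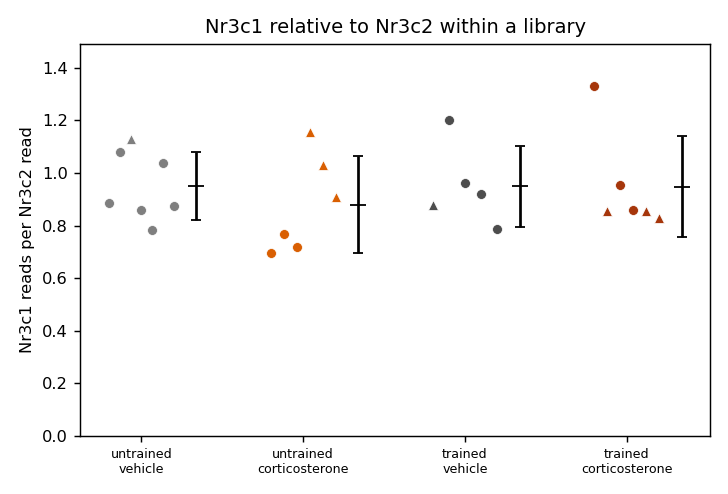
Nr3c1 reads per Nr3c2 read (vertical axis, from 0) in each library by group, with the mean and SD beside each group and triangles for the 8 libraries apart on the first component. All 4 groups overlap, and trained corticosterone replicate 3 is highest at 1.33.

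Variation between libraries of the same group was then examined. The within-group SD of log2 CPM was 0.09 for Nr3c1, 0.21 for Nr3c2 and 0.14 for Hsd11b1. Counting alone gives a coefficient of variation of 2.73%, 2.61% and 3.95% at their mean counts. The spread of Nr3c2 was larger than that of 96.0% of the 916 genes within 1.2-fold of its mean level, whose median SD was 0.08. For Nr3c1 this share was 54.7% of 992 genes, and for Hsd11b1 79.0% of 1366 genes.

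No pair of the 3 genes had a within-group relation that passed. Pearson r was -0.29 for Nr3c1 with Nr3c2 (p = 0.16, Spearman rho = -0.38, p = 0.0861), 0.01 for Nr3c1 with Hsd11b1 (p = 0.948, rho = -0.0043, p = 0.986) and 0.13 for Nr3c2 with Hsd11b1 (p = 0.59, rho = 0.21, p = 0.361), by permutation tests within groups over 24 libraries. Adjusted over the 6 relations, the p-values of r were 0.479, 0.948 and 0.885, and those of rho 0.272, 0.986 and 0.630. Without the 2 libraries farthest from the median of the first-named gene, r was -0.14, 0.11 and 0.21, and without the 8 that stand apart it was -0.27, 0.24 and 0.26. The treatments differed in these values. Within the 12 vehicle libraries r was -0.61, 0.30 and 0.35, and within the 12 corticosterone libraries -0.13, -0.34 and 0.03, so that Nr3c1 with Hsd11b1 had opposite signs. The difference between treatments was not tested.

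Nr3c2 followed a pattern that many other genes shared. After group means were removed, 108 of 13794 genes (mean level of 1 CPM or more) had a correlation of at least 0.8 with it over the 24 libraries, where the median gene of like level had 1 such partner and 97.5% of them had fewer than Nr3c2. The gene most like it was ENSRNOG00000031325 (r = 0.91), at 164 to 230.0 CPM over the libraries. Nr3c1 had 1 gene at or above 0.8, ENSRNOG00000023807 (r = 0.82, 20.6 to 29.7 CPM), and Hsd11b1 had 0, with a highest value of 0.79. These correlations are descriptions. All genes of a library share its depth, scaling and dissection, and total counts differed between libraries.

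Of the first 3 principal components of the within-group values, Nr3c2 was closest to the third, which carried 7.85% of their variance. Nr3c2 had a correlation of -0.83 with it, larger in size than that of 99.4% of genes, against 0.48 for Nr3c1 and 0.03 for Hsd11b1. With the first and the second component Nr3c2 had 0.14 and -0.33. The components were computed from all 24 libraries and from values that include Nr3c2. The 5 libraries with the highest scores on the third component were replicates 10 (trained vehicle), 3 (trained corticosterone), 17 (untrained vehicle), 19 and 29 (untrained corticosterone). They were the lowest of their group in Nr3c2, with the pair of replicates 19 and 29 as the lowest 2 of theirs. Hsd11b1 had its largest correlation, 0.49, with the first within-group component, which carried 32.4% of the variance. What the components stand for was not tested.

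Nr3c1 was finally set against the other genes called for corticosterone, after group means were removed. These genes were called in the same comparison, on the same libraries and with the same scaling, and the values were added after the data were seen, so they are descriptions with no test. The other 36 genes called lower were averaged as centred log2 CPM per library. The correlation of Nr3c1 with this mean was r = 0.65 (rho = 0.56). It was 0.63 within corticosterone and 0.67 within vehicle libraries, and 0.73 without the 8 that stand apart. With the log2 total count removed from both measures, r was 0.58, and without the 2 libraries farthest from the median of Nr3c1 it was also 0.58.

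With the 101 genes called higher, the pooled r of Nr3c1 was -0.01 (rho = -0.02), but this joined 0.38 within corticosterone and -0.65 within vehicle libraries. Without the 8 libraries that stand apart it was -0.29. For Nr3c2, r was 0.13 with the genes called higher and -0.05 with those called lower. The former was 0.77 without the 8 libraries, 0.03 within corticosterone and 0.52 within vehicle libraries, and the latter was 0.25 and -0.46 within the treatments in that order. For Hsd11b1 the values were -0.21 and 0.10. Of the receptor genes' relations with these means, that of Nr3c1 with the genes called lower had values between 0.58 and 0.73 over the subsets given. The others changed sign or size. The subsets share libraries with each other and with the fit that called Nr3c1 and these genes, so this is a description.

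**Figure D4:**
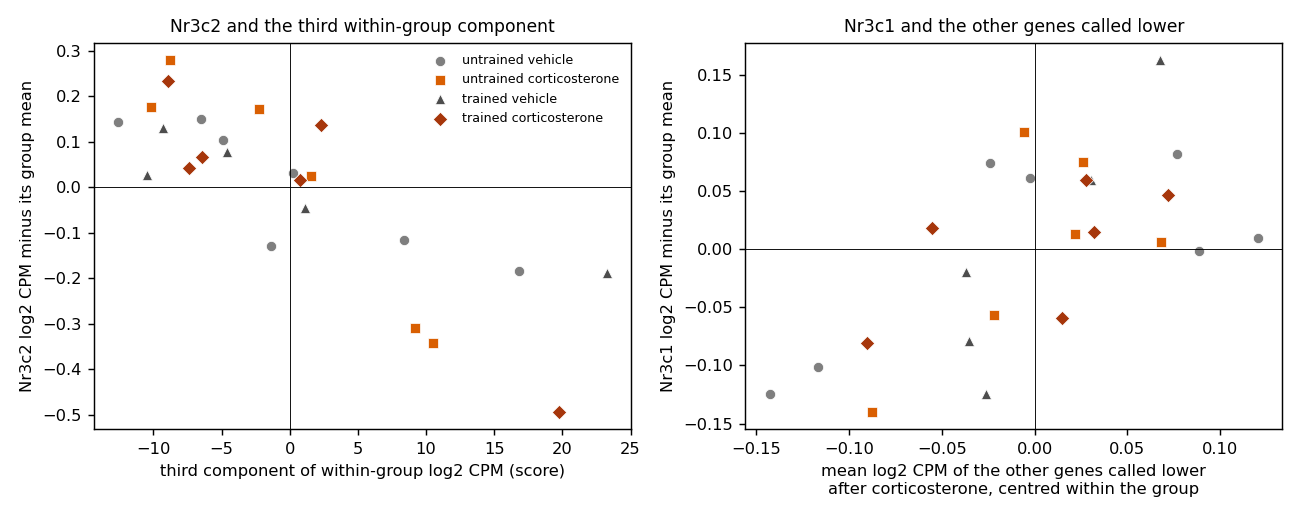
Left, Nr3c2 log2 CPM minus its group mean against the score of the third within-group component (r = -0.83). Right, Nr3c1 log2 CPM minus its group mean against the mean of the other 36 genes called lower, centred within the group (r = 0.65). Each point is 1 of the 24 libraries, with a symbol per group.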

How the data were processed

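RNA of 24 hippocampus samples was sequenced as stranded, paired-end libraries of enriched messenger RNA on a DNBseq instrument, per the labels' protocols. The authors deposited raw read counts per Ensembl gene. The submitters' processing notes name FastQC, MultiQC, STAR 2.7.0b, HTSeq 0.6.1 and build rn6. For annotation release and strand setting the sources used here give no entry, so reads shared with overlapping or antisense genes cannot be told apart. Summary rows of the counter, 37.4% to 40.2% of a column, were left out.

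Genes were filtered with filterByExpr, scaled with TMM and tested with edgeR 4.0.16 (quasi-likelihood, R 4.3.3) in 1 model of 4 group means, with Benjamini-Hochberg adjustment over all 14838 genes. An SE is the fold change divided by the square root of F. Principal components and correlations used log2 CPM with a prior count of 2, and ratios a prior count of 0.5 reads on the log scale. Permutation tests within groups drew 1e+05 resamples. DESeq2 1.42.0 and other settings were alternatives. Scripts were tested on simulated counts. No 2 libraries of a group agreed within sampling noise (smallest chi-square per degree of freedom 4.28). Named genes are the 3 members and the gene most like each receptor. Members, lists and tests were chosen with earlier results of these data known, and pathway and marker lists by symbol could not be looked up.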

Additional observations from a re-analysis of the deposited data

Results flagged for a closer look

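In 16 group-wise checks (3 genes and the receptor ratio in 4 groups) a library was noted when its gap to the nearest other library exceeded the 95% critical value of Dixon's test, which chance gives in about 1 of 20 groups. Trained corticosterone replicate 3 was noted for both Nr3c2, at 59.9 CPM where the next library had 85.2 CPM, and the ratio, at 1.33 Nr3c1 reads per Nr3c2 read where the next had 0.954. The 2 notes share the Nr3c2 count. Its Nr3c1 level, 79.8 CPM, was at the middle of its group.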

How the results depend on the processing

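No paired analysis was possible because all sample numbers differ, so no groups share a replicate number. Across the alternatives (upper-quartile factors, DESeq2, other filters, a residual component, sample number or log2 total counts as covariate, subsets of libraries), 0 of 390 tests of the 3 genes for training or interaction passed (smallest adjusted p = 0.218). Averaged over training, the Nr3c1 corticosterone difference lay between -0.23 and -0.17, and was negative in every alternative. The number of genes called in that comparison, 138 with edgeR, was 422 with the residual component as covariate (348 higher, 74 lower), 76 with log2 total counts (68 and 8) and 47 without the 8 libraries apart on the first component (43 and 4), and 97 to 154 leaving out 1 library. In untrained rats, 53 became 87 with DESeq2 (70 higher, 17 lower), 142 with the residual component and 10 without the 8 libraries. Leaving out 1 library gave 33 to 62, with 33 when vehicle replicate 7, vehicle replicate 41 or corticosterone replicate 39 of the untrained rats was absent, and 34 when corticosterone replicate 29 was. In trained rats, 24 became 60 with DESeq2 (46 higher, 14 lower), 169 with the residual component, 15 without the 8 libraries, 13 when only the 2 groups compared were fitted and 6 with log2 total counts. Leaving out 1 library gave 14 to 27, with 14 without trained vehicle replicate 10. The cause was not tested. The log2 ratio difference for training ran from -0.09 to 0.06 under vehicle and from 0.01 to 0.20 under corticosterone when 1 library was left out.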
